A study of Mus musculus with 4 samples.

Results

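RNA of 10 genes around the entry into the cell cycle was followed in J774 cells after inhibition of the proteasome. The 10 genes were *Myc* and its partners *Max* and *Mxd1*, the D cyclins *Ccnd1*, *Ccnd2* and *Ccnd3*, the kinases *Cdk4* and *Cdk6*, and the CDK inhibitors *Cdkn1b* and *Cdkn2c*. They were chosen by name, through the transcript accession of each array probe and the symbol that RefSeq gives it, with earlier results of these arrays already known. All 10 had a probe, among 20129 genes that could be named in this way, and 14 probes in all stood for them.

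J774 (J774.1 in the labels) is a mouse line of monocyte-macrophage type, grown in RPMI medium with serum. Cells received MG132, epoxomicin, a blocker of the 20S proteasome, or ONX0914, which acts on the β5 and β5i subunits, each at 1 μM, or the solvent DMSO. After 4 hours, RNA of each of the 4 conditions was put on 1 single-color array, and the 4 arrays shared 1 slide. The treatment field of the ONX0914 array names ONX-0912, whereas the protocol and the study's methods name the compound used here. A single line was used, and there was 1 array per condition, so no difference has a replicate check and no test was possible.

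Myc is a transcription factor that pairs with Max to bind E-box sequences and drive growth genes. Mxd1 competes with Myc for Max, and the pair of Mxd1 and Max represses such genes. D cyclins bind Cdk4 and Cdk6, and these kinases phosphorylate the Rb protein, which frees E2F factors to turn on genes of DNA replication. *Cdkn1b* encodes p27, which blocks cyclin-CDK complexes, and *Cdkn2c* encodes an inhibitor of the INK4 family that binds Cdk4 and Cdk6. Myc, cyclin D1 and p27 are short-lived proteins that the proteasome degrades, but the arrays measured RNA and not protein.

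Promoter sequences from RefSeq (GRCm38.p6) are shown for 3 of the genes, because *Cdk4* holds 4 E-boxes, *Mxd1* was the member that increased, and *Cdk6* holds an E-box but differed little. Each is the 250 bases before the start of the gene, 5′ to 3′ on the strand of the gene. Capitals mark matches, on either strand, to 3 motifs. They are the E-box CACGTG, which reads the same on both strands, the GC box GGGCGG, which on the opposite strand appears as CCGCCC, and the TATA box, spelled TATAAA in the search.
Cdk4, chr10:127063285-127063534, plus strand: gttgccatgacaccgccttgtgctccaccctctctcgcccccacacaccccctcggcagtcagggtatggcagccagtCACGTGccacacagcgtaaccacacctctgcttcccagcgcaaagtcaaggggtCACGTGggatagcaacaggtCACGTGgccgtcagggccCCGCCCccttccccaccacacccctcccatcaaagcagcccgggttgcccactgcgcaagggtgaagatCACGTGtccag
Mxd1, chr6:86669160-86669409, minus strand: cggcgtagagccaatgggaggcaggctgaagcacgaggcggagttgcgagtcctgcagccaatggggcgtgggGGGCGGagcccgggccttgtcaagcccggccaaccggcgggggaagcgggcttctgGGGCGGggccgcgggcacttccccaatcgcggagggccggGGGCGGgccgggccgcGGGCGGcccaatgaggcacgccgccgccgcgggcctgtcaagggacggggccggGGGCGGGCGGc
Cdk6, chr5:3343643-3343892, plus strand: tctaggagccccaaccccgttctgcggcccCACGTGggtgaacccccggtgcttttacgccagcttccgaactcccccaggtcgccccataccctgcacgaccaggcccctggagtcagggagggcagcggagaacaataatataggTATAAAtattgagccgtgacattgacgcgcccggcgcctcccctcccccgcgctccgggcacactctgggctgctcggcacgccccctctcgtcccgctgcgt

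The *Cdk4* window held 4 E-boxes, which began 172, 118, 98 and 11 bases before the start, and 1 GC box. Of 32851 mouse windows of the same length, 6.02% held at least 1 E-box and 7 (0.0213%) held 4 or more. The *Mxd1* window held 6 GC boxes, of which the last 2 overlap, and no E-box. The *Cdk6* window held 1 E-box and a TATA box. A GC box was found in 32.7% of all windows and a TATA box in 12.4%. The RefSeq table had 9 windows for 7 of the members (*Max*, *Mxd1*, *Ccnd3*, *Cdk4*, *Cdk6*, *Cdkn1b* and *Cdkn2c*). Of these, 2 held an E-box, 6 a GC box and 1 a TATA box. A cyclic AMP response element (TGACGTCA, in 1.55% of all windows) or an E2F site (TTTCGCGC or TTTGGCGC, in 0.654%) was found in 0 of the 9. These are matches of letters and not measured binding.

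Values are given as the processed signal, the intensity of a spot after background subtraction within its array. Before arrays were compared, the log2 of each signal was taken and the 75th percentile of its array subtracted, because the arrays differed in brightness, with a 75th percentile between 1453 (MG132) and 1683 (epoxomicin). The scanner software marked 60.3% to 63.1% of the spots on an array as well above background, and no spot was saturated. All 10 members were well above background on all 4 arrays. The threshold for calling a gene higher or lower was 2-fold, which is 1 on the log2 scale. The software's own error for a signal gave an error of 0.20 to 0.21 for each log2 difference of a member, which covers the spot and not the culture. It was a nearly constant fraction of the signal, as in 4259 for the *Ccnd1* signal of 42589 with DMSO. Among probes with several spots, the median standard deviation between spots of one probe was 0.056 to 0.061 log2, by array. Each member probe had 1 spot.

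Macrophage genes were checked first. All 9 macrophage markers with a named probe were well above background on all arrays, among them *Csf1r*, the receptor for macrophage colony-stimulating factor, at signals between 165950 and 210824. The summed signal of the 9 was 359506 on the DMSO array, 277240 after MG132, 313650 after epoxomicin and 339548 after ONX0914. Sums in this paragraph were not scaled for the brightness of the arrays. After scaling, the median log2 difference of the 9 from DMSO was −0.13 (MG132), −0.05 (epoxomicin) and 0.04 (ONX0914). None of the 4 B cell markers was well above background on any array. Of the 5 T cell markers, *Cd3e*, *Cd4* and *Lck* were well above background on all 4 arrays, *Cd3d* and *Cd8a* on none, and the sum of the 5 ranged from 6788 to 9004. Of 8 fibroblast and epithelial markers, 2 passed that call in DMSO, 2 after MG132, 4 after epoxomicin and 1 after ONX0914, and their summed signal ranged from 130 to 289. What part these marker genes have in the results that follow was not tested.

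**Figure D1:**
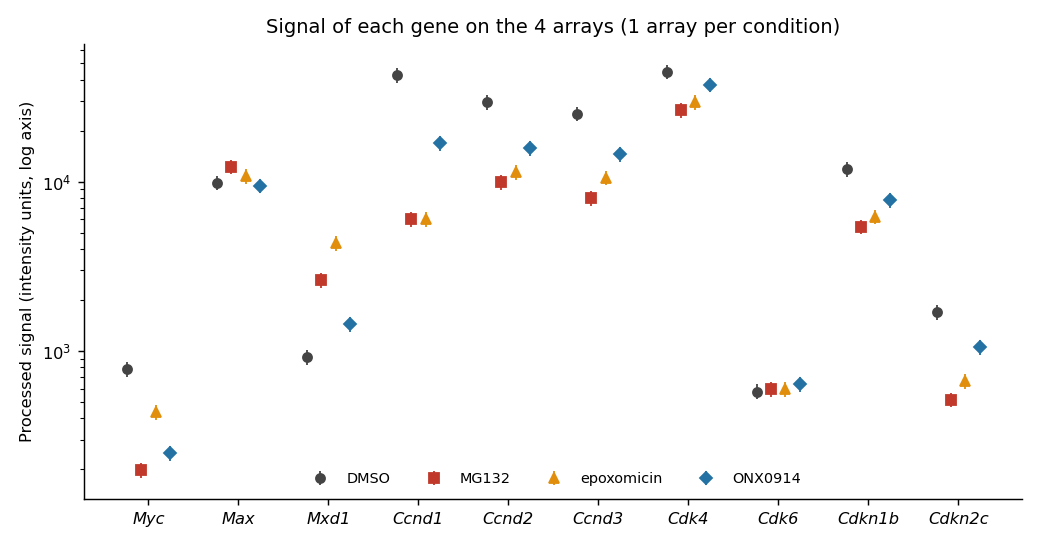
Processed signal of each gene (intensity units, log axis) on the 4 arrays. Points are single arrays and bars are the scanner software's error for that spot. The DMSO point lies highest for *Myc*, the 3 D cyclins, *Cdk4*, *Cdkn1b* and *Cdkn2c*, and lowest for *Mxd1* and, by a narrow margin, *Cdk6*.

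With MG132, 5 of the 10 members were at least 2-fold lower than with DMSO (*Myc*, *Ccnd1*, *Ccnd2*, *Ccnd3* and *Cdkn2c*), against 3.65% of the 13767 genes compared. In the other direction, 1 member (*Mxd1*) was at least 2-fold higher, against 7.24%. With epoxomicin, 4 members were lower (the 3 D cyclins and *Cdkn2c*), against 4.49% of 13867 genes, and 1 (*Mxd1*) was higher, against 8.41%. With ONX0914, 2 members were lower (*Myc* and *Ccnd1*), against 1.41% of 13791 genes, and 0 were higher, against 3.27%. The median log2 difference of the members was −1.16 (MG132), −0.92 (epoxomicin) and −0.61 (ONX0914), where the median of all genes compared was −0.02, −0.04 and −0.01. Over all genes, the split of higher to lower was 997 to 503 with MG132. It was 849 to 687 when arrays were shifted to their median, 1411 to 288 when *Hprt* was the only scaling and 739 to 903 with no scaling. With epoxomicin the split was 1166 to 623, and 1527 to 382 with *Hprt* as the only scaling. For ONX0914 it was 451 to 194, and 519 to 358 in the authors' own table of log2 values. With the normexp background correction in place of the software's, the split turned, to 470 higher and 2525 lower with MG132, 568 and 3028 with epoxomicin, and 192 and 2707 with ONX0914. When outlier spots were also left out before that correction, more genes were again higher than lower, at 601 and 283, 695 and 378, and 214 and 74. The 3 comparisons share the single DMSO array.

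**Figure D2:**
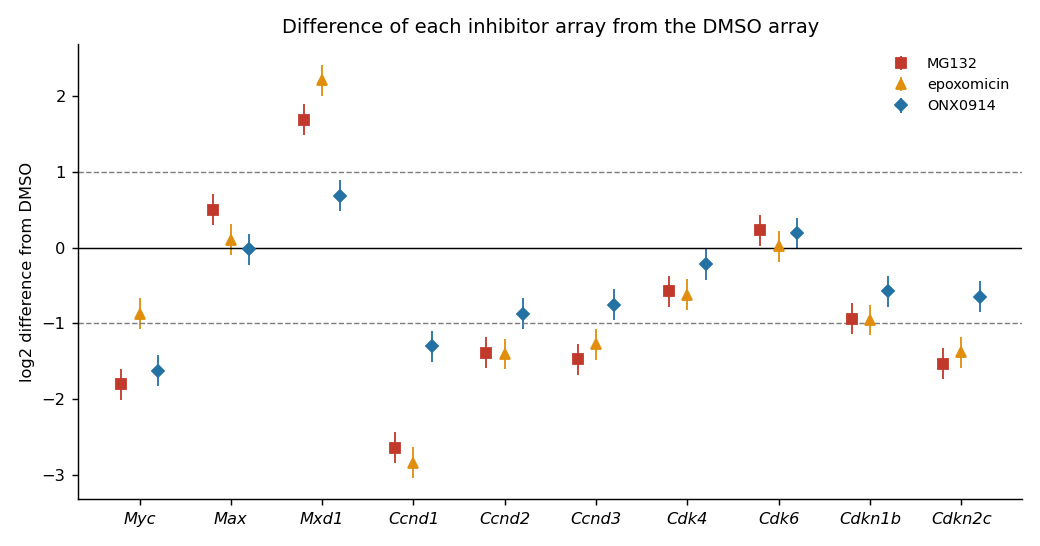
Log2 difference of each inhibitor array from the DMSO array for the 10 genes. Points are single differences, bars the software's error propagated to the difference, and dashed lines mark 2-fold. *Mxd1* is above the upper line with MG132 and epoxomicin, and *Ccnd1* is below the lower line with all 3 inhibitors.

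*Myc* had a signal of 785 with the solvent, and of 197 (MG132), 436 (epoxomicin) and 248 (ONX0914) on the inhibitor arrays. The DMSO array was the highest, and the epoxomicin array lay between it and the other two. After scaling, *Myc* fell by 1.81 on the log2 scale with MG132 (3.50-fold lower) and by 1.62 with ONX0914 (3.08-fold lower). With epoxomicin the difference was −0.87 (1.83-fold lower), which did not reach 2-fold. Among all genes compared, *Myc* was 74th from the lowest with MG132, 43rd with ONX0914 and 888th with epoxomicin. The cells were of a single line, and RNA from a whole culture does not show whether *Myc* was lower in all cells or in a part of them.

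*Max*, the shared partner of Myc and the Mxd proteins, had a DMSO signal of 9883, against 12284 after MG132, 10777 after epoxomicin and 9485 after ONX0914. No inhibitor array was 2-fold from DMSO. The log2 difference was 0.50 with MG132 and 0.10 with epoxomicin. With ONX0914 it was −0.02, a value that ranged from −0.07 to 0.09 over the alternative ways of processing and so had no settled sign.

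*Mxd1* had a signal of 923 with the solvent, and of 2611 (MG132), 4349 (epoxomicin) and 1449 (ONX0914) on the inhibitor arrays. The DMSO array was the lowest and the epoxomicin array the highest. *Mxd1* rose by 1.69 on the log2 scale with MG132 (3.22-fold) and by 2.21 with epoxomicin (4.63-fold), and the difference with ONX0914 was 0.69 (1.61-fold). A second probe of the gene read 703, 1792, 2356 and 874 on the same arrays. It gave log2 differences of 1.54, 1.72 and 0.35, in the same order of inhibitors and with each value nearer to 0.

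Among the D cyclins, *Ccnd1*, which encodes cyclin D1, had a DMSO signal of 42589, against 5992 after MG132, 6037 after epoxomicin and 16822 after ONX0914. The arrays of MG132 and epoxomicin were lowest, and the ONX0914 array lay between them and DMSO. *Ccnd1* fell by 2.64 on the log2 scale with MG132 (6.24-fold lower), by 2.84 with epoxomicin (7.18-fold lower) and by 1.30 with ONX0914 (2.47-fold lower). Only 8 genes had a lower difference with MG132, and only 8 with epoxomicin, so that *Ccnd1* was 9th from the lowest in both, and it was 100th with ONX0914.

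*Ccnd2*, which encodes cyclin D2, had a signal of 29577 with the solvent, and of 9936 (MG132), 11353 (epoxomicin) and 15716 (ONX0914) on the inhibitor arrays. It fell by 1.39 with MG132 and by 1.41 with epoxomicin on the log2 scale (2.62-fold and 2.65-fold lower), and its difference with ONX0914 was −0.88 (1.83-fold lower). The order of the arrays was that of *Ccnd1*, with a smaller distance to DMSO. *Ccnd3*, which encodes cyclin D3, had a DMSO signal of 25243, against 7980 after MG132, 10578 after epoxomicin and 14598 after ONX0914. It fell by 1.47 with MG132 and by 1.28 with epoxomicin (2.78-fold and 2.43-fold lower), with a difference of −0.75 with ONX0914. Its second probe, for another transcript of the gene, gave −1.42, −1.29 and −0.64. The 3 D cyclins thus fell together with MG132 and epoxomicin, and *Ccnd1* alone passed 2-fold with ONX0914.

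The kinases that D cyclins bind differed less. *Cdk4* had a signal of 44684 with the solvent, and of 26351 (MG132), 29452 (epoxomicin) and 37426 (ONX0914) on the inhibitor arrays. All inhibitor arrays were below DMSO, and none by 2-fold. The log2 differences were −0.58, −0.63 and −0.22, and the other 2 probes of the gene gave −0.71 and −0.71 with MG132, −0.68 and −0.74 with epoxomicin, and −0.21 and −0.23 with ONX0914. *Cdk6* had a DMSO signal of 576, against 593 after MG132, 593 after epoxomicin and 640 after ONX0914, so that its 4 arrays were close together. Its log2 differences were 0.23, 0.02 and 0.19 for MG132, epoxomicin and ONX0914. Over the alternative ways of processing they ranged from −0.19 to 0.43, from −0.33 to 0.19 and from −0.20 to 0.22, and *Cdk6* therefore had no settled direction.

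Of the CDK inhibitors, *Cdkn2c* had a signal of 1704 with the solvent, and of 516 (MG132), 665 (epoxomicin) and 1059 (ONX0914) on the inhibitor arrays. DMSO was highest and MG132 lowest. *Cdkn2c* fell by 1.54 with MG132 and by 1.38 with epoxomicin on the log2 scale (2.90-fold and 2.61-fold lower), and its difference with ONX0914 was −0.65 (1.57-fold lower). *Cdkn1b* had a DMSO signal of 11875, against 5430 after MG132, 6221 after epoxomicin and 7762 after ONX0914. Its log2 differences were −0.94 (MG132), −0.96 (epoxomicin) and −0.58 (ONX0914), the first 2 just short of 2-fold. *Cdkn2c*, *Cdkn1b* and the D cyclins were thus lower than with DMSO on each inhibitor array, though not all by 2-fold. On the same arrays the repressor *Mxd1* was higher, and so was *Cdkn1a*, a CDK inhibitor outside the members that is described below.

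The inhibitor arrays were next set against each other, which does not involve the DMSO array. Each compound was used at the same dose and time. Between epoxomicin and MG132, 0 of the 10 members were 2-fold apart, against 1.5% of the 13626 genes compared. *Myc* came closest, 0.93 higher with epoxomicin on the log2 scale (1.91-fold), and only 128 genes were further up. For the D cyclins, the difference of epoxomicin from MG132 was −0.20 (*Ccnd1*), −0.02 (*Ccnd2*) and 0.20 (*Ccnd3*), and the sign for *Ccnd1* and *Ccnd2* turned when no scaling between arrays was applied. *Cdkn1b* differed by −0.02, *Cdk4* by −0.05 and *Cdk6* by −0.21, and these signs also turned without scaling. Those of *Ccnd2* and *Cdkn1b* turned as well with the shift to the median and with normexp, whether outlier spots were kept or not. Each of these 2 genes kept its sign in 7 of 11 alternatives.

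Between ONX0914 and MG132, 1 member was 2-fold apart, against 4.12% of 13703 genes. That was *Ccnd1*, 1.34 higher with ONX0914 on the log2 scale (2.53-fold). *Mxd1* was just short of the threshold, with a log2 difference of −0.9995, and its other probe was 2.27-fold lower with ONX0914. *Cdkn2c* was 0.89 higher and *Ccnd3* 0.72 higher with ONX0914. *Myc* differed by 0.18 between these arrays, against its difference of 0.93 between epoxomicin and MG132.

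Between ONX0914 and epoxomicin, 2 members were 2-fold apart, against 5.94% of 13790 genes. *Ccnd1* was 1.54 higher with ONX0914 on the log2 scale (2.91-fold), and *Mxd1* was 1.52 lower, that is 2.88-fold higher with epoxomicin. *Cdkn2c* differed by 0.73 and *Ccnd2* and *Ccnd3* by 0.53 each, all higher with ONX0914. *Myc* went the other way, with a log2 difference of −0.75 (1.68-fold higher with epoxomicin). For the D cyclins, *Cdkn2c*, *Cdkn1b*, *Cdk4* and *Mxd1*, the ONX0914 array was thus the nearest to DMSO, and for *Myc* the epoxomicin array was.

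**Figure D3:**
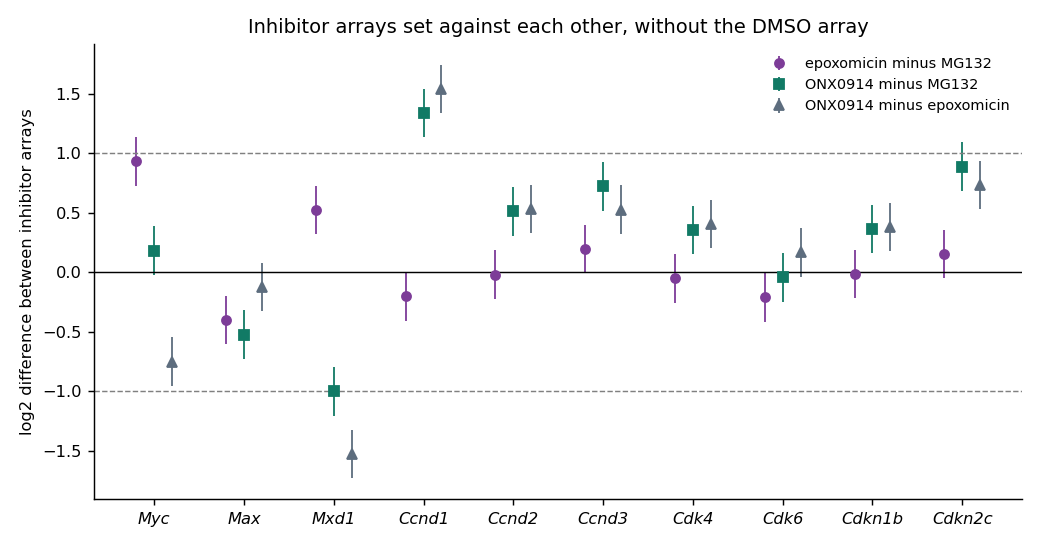
Log2 differences between pairs of inhibitor arrays for the 10 genes, with the software's error as bars and dashed lines at 2-fold. *Ccnd1* lies above the upper line in both comparisons with ONX0914, and the circle of *Myc* (epoxomicin minus MG132) lies at 0.93.

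Genes that Myc is known to drive were read from a list of 28, mostly of ribosome assembly and nucleotide synthesis. All 28 were well above background on all arrays. With MG132 and epoxomicin, 2 of the 28 were at least 2-fold higher, a share close to the 7.24% and 8.41% of all genes compared, and 0 were lower, against 3.65% and 4.49%. With ONX0914, 0 were higher (3.27% of all genes) and 0 lower (1.41%). The median log2 difference of the list was 0.08, 0.16 and −0.03. The 2 genes past 2-fold were *Nop58*, a core protein of small nucleolar ribonucleoproteins (log2 differences of 1.05, 1.05 and 0.35), and *Wdr43*, a factor of small ribosomal subunit assembly (1.12, 1.06 and 0.50). *Odc1*, the rate-limiting enzyme of polyamine synthesis, differed by −0.06, −0.04 and −0.19. *Ldha*, lactate dehydrogenase A, differed by −0.56, −0.64 and −0.20, *Ncl* (nucleolin) by 0.33, 0.21 and 0.19, and *Npm1* (nucleophosmin) by 0.33, 0.33 and 0.23. The list thus stood near the median of all genes on the arrays on which *Myc* was lower.

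Genes with an E-box in a window before their start were set beside genes whose windows held none, as a description added after the data were seen. Genes without a RefSeq window, among them *Myc*, *Ccnd1* and *Ccnd2*, were in neither group. With MG132, 61 of 1032 such genes were at least 2-fold higher (5.91%) and 32 lower (3.1%), beside 7.11% and 3.66% of 9954 genes without one. With epoxomicin the shares were 7.59% and 3.94% of 1041 genes, beside 8.28% and 4.48%. With ONX0914 they were 2.14% and 1.75% of 1027 genes, beside 3.2% and 1.24%. The median of the E-box genes was −0.05, −0.06 and −0.04, beside −0.02, −0.04 and −0.01 for genes without one.

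Of 11 further genes of the Myc, Max and Mlx network, 7 were well above background on all arrays, and *Mycn*, *Mycl*, *Mxi1* and *Zbtb17* on none. None of the 7 was 2-fold higher with any inhibitor, where 7.24% (MG132), 8.41% (epoxomicin) and 3.27% (ONX0914) of all genes were. With MG132, 2 of the 7 were lower, against 3.65% of all genes, with epoxomicin 1, against 4.49%, and with ONX0914 1, against 1.41%. *Mxd3*, a relative of *Mxd1*, had a signal of 581 with the solvent, and of 95.9 (MG132), 109 (epoxomicin) and 174 (ONX0914) on the inhibitor arrays. It fell with all 3 inhibitors, by log2 differences of −2.41, −2.44 and −1.70, the direction opposite to *Mxd1*. *Mlxip*, which encodes a partner of Mlx, fell by 1.18 with MG132, with differences just short of 2-fold with epoxomicin (−0.9959) and of −0.31 with ONX0914. *Mnt*, another repressor that pairs with Max, differed by −0.81, −0.76 and −0.59, *Mxd4* by −0.68, −0.69 and −0.32, and *Mga* by 0.60, 0.67 and 0.38. The median of the 7 was −0.68, −0.69 and −0.31.

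Among 5 other CDK inhibitors, *Cdkn2a* and *Cdkn2b* were not well above background on any array. *Cdkn1a*, which encodes p21, had a DMSO signal of 8962, against 57082 after MG132, 70870 after epoxomicin and 34677 after ONX0914. It rose by 2.86, 2.96 and 1.99 on the log2 scale. *Cdkn2d*, of the same INK4 family as *Cdkn2c*, had a signal of 18474 with the solvent, and of 4070 (MG132), 5702 (epoxomicin) and 7294 (ONX0914) on the inhibitor arrays. It was 3.99-fold, 3.30-fold and 2.47-fold lower with MG132, epoxomicin and ONX0914. *Cdkn1c*, which encodes p57, was dim, with a signal of 48.2 with DMSO and 23.2 with ONX0914, and it was not well above background with MG132 or epoxomicin. It was at least 2.38-fold lower with MG132, at least 2.41-fold lower with epoxomicin and 2.02-fold lower with ONX0914. Here each bound sets the DMSO signal of *Cdkn1c* against the lowest signal well above background on the other array. The median of the 3 was −1.25, −1.27 and −1.02, with *Cdkn1c* at its bound. Between *Cdkn1a* and the others on this list, the arrays therefore differed in direction.

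Of 7 other genes of the G1 phase and the CDK-activating kinase, 6 were well above background on all arrays and *Ccne2* on none. *Ccne1*, which encodes cyclin E1, had a DMSO signal of 8647, against 1532 after MG132, 2077 after epoxomicin and 3507 after ONX0914. It was the one gene of the 6 past 2-fold, and it fell with all 3 inhibitors (log2 differences of −2.31, −2.08 and −1.27). Over all genes, 3.65%, 4.49% and 1.41% were at least 2-fold lower, and 7.24%, 8.41% and 3.27% higher. *Ccna2*, which encodes cyclin A2, differed by −0.95, −0.74 and −0.57, and *Cdk2*, the kinase that binds cyclins E and A, by −0.80, −0.50 and −0.26. The median of the 6 was −0.58, −0.47 and −0.33.

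All 13 genes of the Rb and E2F families were well above background on all arrays. *E2f8*, an E2F protein that represses, was the one gene past 2-fold, with a fall of 1.04 with MG132 and 1.12 with ONX0914 and a difference of −0.75 with epoxomicin. Thus 1 of the 13 was lower with MG132 and 1 with ONX0914, against 3.65% and 1.41% of all genes, and 0 with epoxomicin, against 4.49%. With the 3 inhibitors 0 were higher, against 7.24%, 8.41% and 3.27%. *E2f1* differed by −0.34, −0.38 and −0.22, and *Rb1* by −0.20, −0.05 and −0.14. The median of the 13 was −0.45, −0.29 and −0.22.

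Ubiquitin ligases that target Myc, D cyclins or p27, with their cofactors and the deubiquitinase *Usp28*, made a list of 12. Of these, 10 had a named probe, and all 10 were well above background on all arrays. *Fbxo31*, an F-box protein for cyclin D1, fell by 1.45 with MG132 and by 1.66 with epoxomicin, and its difference with ONX0914 was −0.53. No other gene of the list passed 2-fold. Thus 1 of the 10 was lower with MG132 and 1 with epoxomicin, against 3.65% and 4.49% of all genes, and 0 with ONX0914, against 1.41%. With the 3 inhibitors 0 were higher, against 7.24%, 8.41% and 3.27%. *Fbxw7*, the F-box protein that recognizes Myc and cyclin E, differed by 0.09, 0.11 and −0.15, and *Ambra1*, a substrate receptor for D cyclins, by 0.79, 0.67 and 0.15. *Cks1b*, a cofactor in the recognition of p27, differed by −0.72, −0.69 and −0.23. The median of the 10 was 0.03, 0.00 and −0.11.

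**Figure D4:**
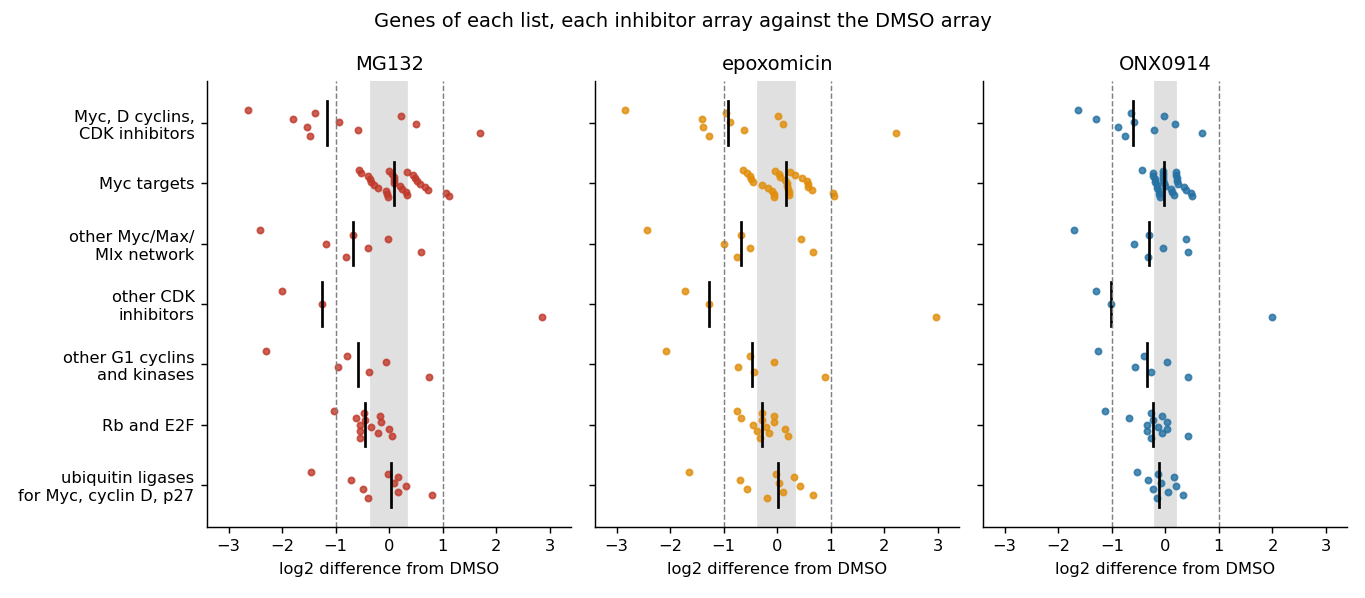
Log2 difference from DMSO of the 10 genes and of the genes of 6 related lists, by inhibitor. Each point is a gene, short black lines are medians, the grey band runs from the lower to the upper quartile of all genes compared, dashed lines mark 2-fold, and *Cdkn1c* is drawn at its bound with MG132 and epoxomicin. Most Myc target genes lie in or near the grey band, while the medians of the 10 genes lie to the left of it.

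The 10 reference genes give the scale of these differences. Of the 10, 9 were within 2-fold of DMSO on every inhibitor array, and their list median was −0.18, −0.16 and −0.04. *Gusb*, which encodes a lysosomal enzyme, fell by 1.48 with MG132 and by 1.36 with epoxomicin, with a difference of −0.30 with ONX0914.

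For each member past 2-fold with at least 1 inhibitor, the 3 genes with the most similar set of differences were found among 12728 genes well above background on all arrays. The measure was the Euclidean distance over the 3 log2 differences, which share the DMSO array. *Ccnd2* had the closest neighbours, *Sipa1* (0.0299), *Mrpl41* (0.0626) and *Pik3cg* (0.102). The nearest to *Mxd1* were *Cyp26a1* (0.0681), which encodes a retinoic acid hydroxylase, *Hdc* (0.103), which encodes histidine decarboxylase, and *C4b* (0.148), a complement gene. *Cyp26a1* had log2 differences of 1.63, 2.22 and 0.73. Near *Cdkn2c* lay *Emb* (0.0609), *Ska2* (0.111) and *Marcksl1* (0.137), and near *Ccnd3* lay *Marcksl1* (0.0878), *Prr36* (0.111) and *Slc14a1* (0.115).

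The nearest genes of *Ccnd1* and *Myc* lay farther off. For *Ccnd1* the nearest were *Sh2d3c* (0.131), *9930012K11Rik* (0.309) and *H3c8* (0.451), a histone gene whose probe may also read near-identical copies. For *Myc* they were *B3gnt8* (0.316), *Ccng2* (0.494), which encodes cyclin G2, and *AY074887* (0.540). *B3gnt8* had log2 differences of −1.83, −0.84 and −1.31, *Ccng2* of −1.48, −1.12 and −1.35, and *AY074887* of −1.37, −1.19 and −1.67. Since the neighbours were picked on these differences, their likeness to *Myc* is a description only.

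**Figure D5:**
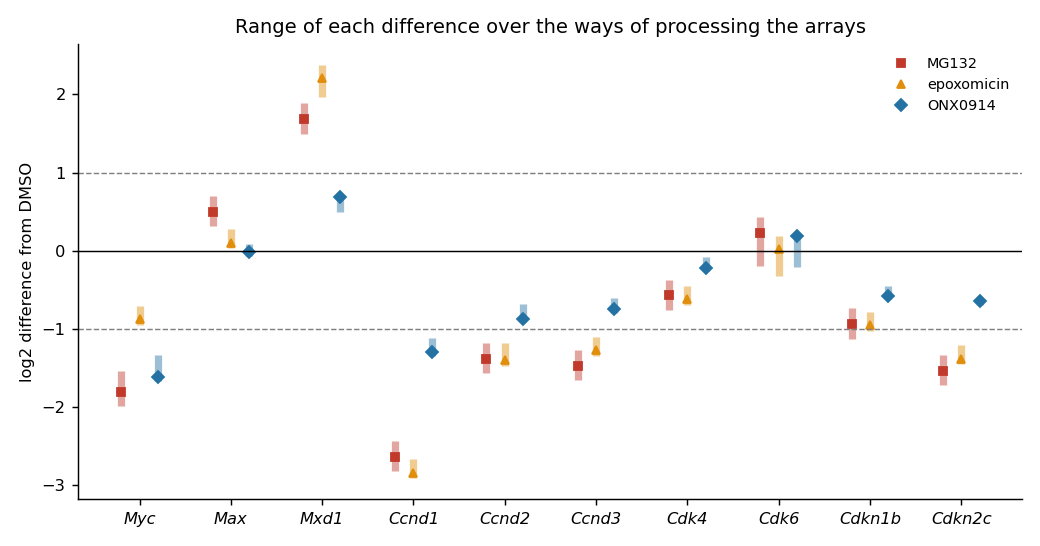
Log2 difference from DMSO as reported (points) and its range over 11 other ways of processing the same arrays (bars, hidden by the point where short), with dashed lines at 2-fold. The bars of *Cdk6* cross 0, those of *Cdkn1b* reach past 2-fold with MG132 and epoxomicin, and those of *Ccnd1* stay below −1.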

How the data were processed

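RNA of 4 J774 cultures was labelled with Cy3 and measured on 1 array each. Scanner output was deposited as it left Feature Extraction 10.7.1.1, and in it the intensity of each spot is given before and after background subtraction, with the software's calls of outlier, saturated and well-above-background spots. Between arrays these intensities had not been scaled. A deposited table of log2 values, made by the authors, served as an alternative. The study's methods name a human array design and the file headers a mouse design, so probes were named through mouse RefSeq (GRCm38.p6). Positions are given only for promoter windows, from RefSeq, because the headers name another build.

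Control and outlier spots were left out. The log2 processed intensity minus the 75th percentile of its array was averaged over spots of a probe with pandas 2.3.3, numpy 2.4.6 and Python 3.11.15. Of 39429 probes, 26575 (67.4%) received a gene symbol, and the probe with the highest mean over the arrays stood for a gene. A gene entered a comparison if either of its arrays had it well above background. Where the dimmer signal was not, a bound took its place. That bound was the lowest signal well above background on that array, or the gene's own signal if higher. Genes with such a bound on the wrong side of 0 were left out. The number of arrays limits the precision.

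The members and gene lists were chosen with earlier results of these data known. Named are all members, genes of a list past 2-fold with up to 4 others, and the 3 genes nearest to each member past 2-fold. Alternatives covered the scaling, the background correction (normexp with an offset of 50, limma 3.58.1 in R 4.3.3), the choice of probe, the use of bounds, the filter, the authors' table and the fold threshold. Normexp without outlier spots was added after the data were seen, as were the error of the software and the E-box genes. The code was tested on simulated data.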

Additional observations from a re-analysis of the deposited data

How the results depend on the processing

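Of 60 log2 differences of the members (10 genes, 6 comparisons), 50 kept their direction and 55 their side of 2-fold under all 11 alternatives to the scaling, background correction, probe, bounds, filter or table. Not every alternative could move a member. All 10 were well above background on all arrays, so the alternatives to the bounds and the filter left their values unchanged. The mean over probes could not change the 7 members with 1 probe. The changed calls were those of *Cdkn1b* with MG132 (−1.13 to −0.74) and epoxomicin (−1.03 to −0.79), and of *Mxd1* (−1.17 to −0.85) and *Cdkn2c* (0.72 to 1.04) between ONX0914 and MG132 and *Myc* (0.74 to 1.14) between epoxomicin and MG132. The number of members 2-fold apart between ONX0914 and MG132 was 2 with the 75th percentile over detected probes, with *Hprt* as the only scaling, without scaling and with the mean over probes, against 1 as reported. Of all genes, 591, 754, 515 and 538 were apart in these settings, in that order, against 565 of 13703 as reported. Between epoxomicin and MG132, 1 member was apart without scaling, against 0. Of all genes, 239 were apart in that setting, against 205 of 13626 as reported. At 1.5-fold, 6 members were lower with MG132, beside 1772 of 13767 genes. With epoxomicin 7 were lower, beside 2007 of 13867, and with ONX0914 5, beside 719 of 13791. *Mxd1* was the 1 member higher with each inhibitor, beside 2058, 2275 and 1047 genes. Between epoxomicin and MG132, 1 member was apart, beside 592 of 13626 genes. Between ONX0914 and MG132 it was 4, beside 1908 of 13703, and between ONX0914 and epoxomicin 4, beside 2525 of 13790. At 4-fold, 1 member was lower with MG132 and 1 with epoxomicin (*Ccnd1* in both), beside 48 of 13767 and 60 of 13867 genes. With ONX0914, 0 were lower, beside 20 of 13791. *Mxd1* was higher with epoxomicin (4.63-fold), beside 335 of 13867 genes, and 0 members were higher with MG132, beside 270 of 13767. This 4-fold call of *Mxd1* depended on the probe and the background correction. Its second probe was 3.29-fold higher. With the mean over probes, and with normexp, the log2 difference was 1.97, which is below 4-fold. Between ONX0914 and MG132 or epoxomicin, 0 and 0 members were apart, beside 76 of 13703 and 132 of 13790 genes.

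Counts over all genes moved more. Over the 11 alternatives at 2-fold, genes higher ranged from 470 to 1411 with MG132 (997 as reported), 568 to 1527 with epoxomicin (1166) and 192 to 530 with ONX0914 (451). Genes lower ranged from 283 to 2525 (503), 378 to 3028 (623) and 74 to 2707 (194), with the highest of each from normexp, which fell to 283, 378 and 74 without outlier spots. Genes apart ranged from 30 to 365 between epoxomicin and MG132 (205), 192 to 824 between ONX0914 and MG132 (565) and 359 to 1133 between ONX0914 and epoxomicin (819). The counts at 1.5-fold were 2058 higher and 1772 lower, 2275 and 2007, and 1047 and 719, with 592, 1908 and 2525 apart. At 4-fold they were 270 and 48, 335 and 60, and 114 and 20, with 25, 76 and 132 apart. The median of all genes with MG132 moved from −0.02 to −0.20 without scaling, 0.19 with *Hprt*, −0.12 with the shift to the median and −0.27 with normexp. The cause of these changes was not tested. No paired analysis was possible because each condition had 1 array.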

Other observations

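Some marker genes outside the cell cycle lists were past 2-fold on the same arrays. *Lck*, a tyrosine kinase of T cells, had a signal of 1628 with the solvent, and of 3435 (MG132), 4468 (epoxomicin) and 2958 (ONX0914) on the inhibitor arrays, with log2 differences of 1.26, 1.43 and 0.90. *Krt8*, an epithelial keratin, was not well above background with DMSO or ONX0914 and had a signal of 37.8 with MG132 and 121 with epoxomicin, which is at least 2.92-fold and at least 8.09-fold higher than with DMSO. Its partner *Krt18* was well above background only with epoxomicin, at a signal of 33.7. Of the macrophage markers, *Mertk* was higher by 1.04 on the log2 scale with MG132, and *Lyz2*, which encodes lysozyme, differed by −1.01 with epoxomicin. *Spi1*, which encodes the myeloid factor PU.1, differed by −0.52, −0.98 and 0.08.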
